A study of Homo sapiens with 6 samples.

Results

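Zinc transporters and metallothioneins set how much free zinc a cell holds, and 10 of their genes were followed in LNCaP cells with raised Gα13. The genes were taken by name and not by a cutoff on their values, but with earlier results of these data known. They were the ZIP importers SLC39A1, SLC39A6, SLC39A7, SLC39A9 and SLC39A14, the ZnT exporters SLC30A1, SLC30A5 and SLC30A9, and the metallothioneins MT2A and MT1X. All 10 were present among the 17297 gene symbols of the count table, and all 10 had a mean of at least 1 CPM (reads scaled to library size with TMM factors), so no filter on low values removed any. LNCaP is an established human prostate cancer cell line. One stable line carried the empty pBabe vector (pBabe-vector, labelled WT) and the other overexpressed wild-type GNA13 from the same vector (pBabe-GNA13). Both were transduced, kept under puromycin, and cultured for 48 h before RNA extraction, with 3 biological replicates of each. Because each condition is a single stable line, its replicates are cultures of that line, and the p-values measure the spread between cultures.

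Zinc cannot cross membranes unaided. ZIP proteins (SLC39A genes) move it into the cytosol from outside or from organelles, ZnT proteins (SLC30A genes) move it out of the cytosol, and metallothioneins are small cysteine-rich proteins that bind what is left. The prostate is known for holding more zinc than other soft tissues, a level at which citrate builds up, and prostate cancer cells are known to lose it together with uptake through SLC39A1. When cytosolic zinc rises, the factor MTF1 binds metal response elements (MREs) and switches on metallothionein genes and SLC30A1.

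The promoters of the genes known as MTF1 targets are shown because MREs are the sequences this factor binds. The MRE core was searched on both strands as TGCACNC or TGCGCNC in RefSeq promoter windows (GRCh38.p14), which hold the 250 bases before and 50 bases after a gene's start. Of the 10 genes, 9 matched a window. The promoter of SLC39A14 was left out of the set and was not searched. The MT2A window, chr16:56608334-56608633 on the plus strand, held 8 matches, 5 on the gene's strand and 3 on the other. The MT1X window, chr16:56682220-56682519 on the plus strand, held 4. The window of SLC30A1, chr1:211579112-211579411 on the minus strand, held 2, both on the other strand. Matches are in capitals, and sequences read 5′ to 3′ on the gene's strand.
MT2A: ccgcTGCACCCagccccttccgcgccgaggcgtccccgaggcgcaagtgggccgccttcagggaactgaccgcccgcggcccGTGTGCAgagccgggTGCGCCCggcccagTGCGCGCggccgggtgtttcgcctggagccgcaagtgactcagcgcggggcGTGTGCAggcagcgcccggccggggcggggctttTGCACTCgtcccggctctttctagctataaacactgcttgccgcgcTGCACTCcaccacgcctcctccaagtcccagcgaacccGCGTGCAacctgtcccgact
MT1X: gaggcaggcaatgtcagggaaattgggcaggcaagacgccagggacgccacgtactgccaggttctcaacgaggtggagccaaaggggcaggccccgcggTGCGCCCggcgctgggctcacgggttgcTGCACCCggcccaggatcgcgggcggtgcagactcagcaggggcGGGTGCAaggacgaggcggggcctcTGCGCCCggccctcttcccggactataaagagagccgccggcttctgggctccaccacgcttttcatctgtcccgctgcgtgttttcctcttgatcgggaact
SLC30A1: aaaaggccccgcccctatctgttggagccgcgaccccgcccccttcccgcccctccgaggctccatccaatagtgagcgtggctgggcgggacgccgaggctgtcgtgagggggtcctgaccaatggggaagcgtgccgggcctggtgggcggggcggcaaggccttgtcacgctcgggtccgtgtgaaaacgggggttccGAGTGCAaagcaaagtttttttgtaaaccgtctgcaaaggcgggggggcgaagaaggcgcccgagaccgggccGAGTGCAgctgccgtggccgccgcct

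In all, 35116 promoter windows outside chromosome 8 were searched, a limit that left out SLC39A14 by its location. Of these, 29.6% held at least 1 match, 8.6% at least 2, 0.601% at least 4 and 0.0199% at least 8. The windows of SLC30A5, SLC30A9, SLC39A7 and SLC39A9 held 0 matches. SLC39A6 held 1, and SLC39A1 held 1 in one of its windows and 0 in the other. A match describes letters in the window and does not show that MTF1 binds there.

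The libraries held 33002160 to 40628970 counts, so 3 counts, taken as the floor of detection, equal 0.0715 to 0.0935 CPM after TMM scaling (this floor covers counting error alone, as PCR copies of a molecule were not told apart). GNA13 was expressed at 818 ± 69.6 CPM in pBabe-GNA13 and 70.5 ± 5.72 CPM in pBabe-vector (SD, n = 3 each), 11.6 times as high with an adjusted p by edgeR of 9.12e-05, as the labels say. All 7 luminal prostate markers looked for were present, such as KLK3 at 1836 to 4204 CPM. Of the markers of other cells, COL1A1 reached 11.5 to 23.1 CPM, KRT5 at most 3.72 CPM, COL3A1 at most 0.989 CPM and TP63 at most 0.145 CPM. Mean levels of KRT5 were higher in pBabe-GNA13, at 3.08, 0 and 3.72 CPM against 0.572, 0 and 0.592 CPM, and so were those of the luminal gene KLK2, at 173, 372 and 169.8 CPM against 111, 171 and 83.3 CPM. Their part in the results on zinc genes was not tested, and in bulk RNA fewer cells of a type and less RNA per cell cannot be told apart. PTPRC and PECAM1 were not among the symbols of the table. Libraries are named by replicate, and 1 library of each line carries the tag std, which is replicate 1 of pBabe-vector and a pBabe-GNA13 library whose replicate number the column headings leave unclear. Libraries of the 2 lines pair up (std with std, 2 with 2, 3 with 3), since those of a pair deviated from their group means together. Differences between the lines were therefore fitted without and with the pair as a block.

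Between the lines, none of the 10 genes differed at an adjusted p under 0.05 in edgeR's quasi-likelihood test without the block, and 2 had an unadjusted p under 0.05. Of all genes, 0.139% were called in that fit and 8.46% had an unadjusted p under 0.05. With the block, 3 of the 10 genes were called, SLC39A14, SLC39A7 and SLC39A9, all importers and all lower in pBabe-GNA13. The background of that fit is high, with 19.7% of all genes called, 10.4% as lower and 9.32% as higher. Differences are given as log2 ratios of pBabe-GNA13 to pBabe-vector. The median log2 ratio was −0.06 for the 10 genes, against −0.01 for the 14059 genes with a mean of at least 1 CPM.

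**Figure D1:**
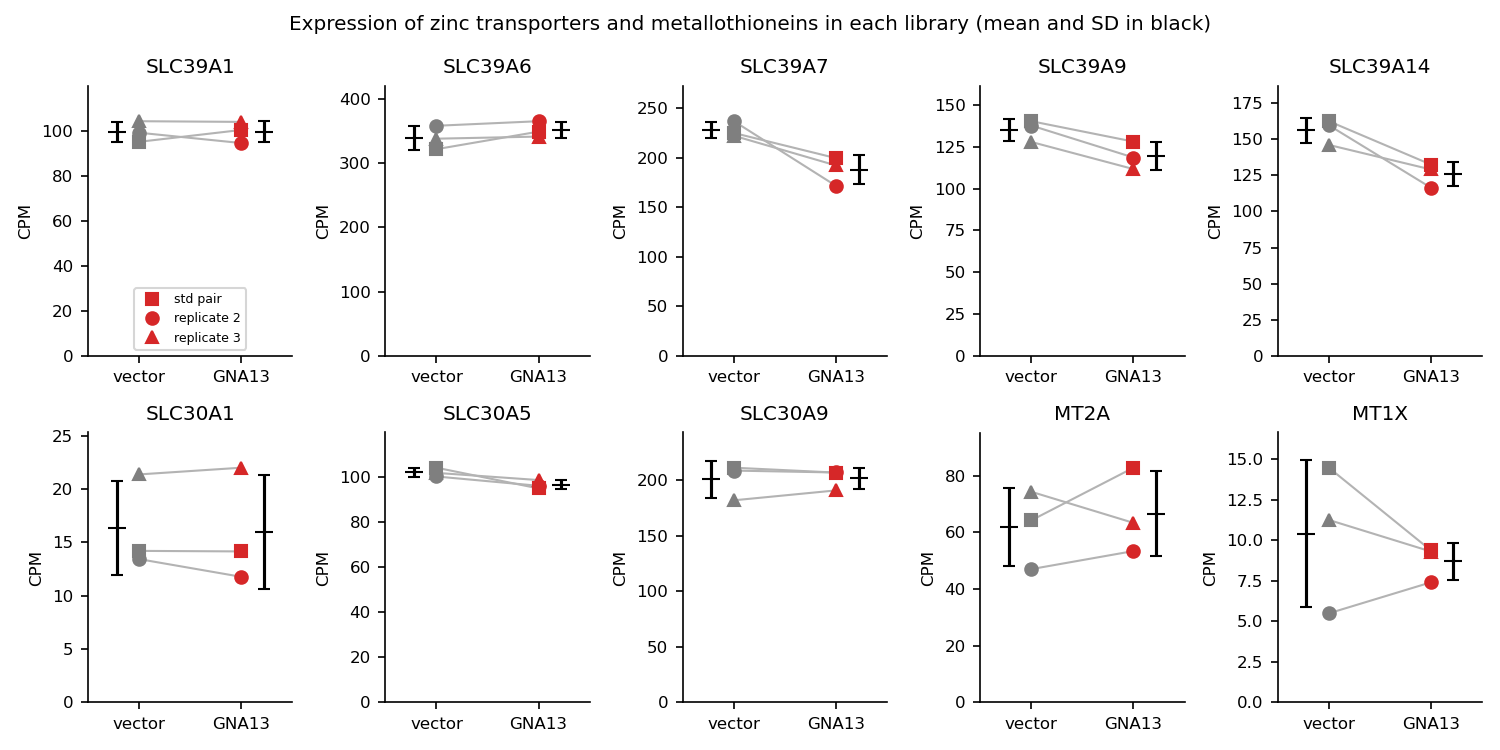
Expression in CPM of each of the 10 genes in pBabe-vector (grey) and pBabe-GNA13 (red) libraries, with grey lines joining the libraries of a pair and black bars giving the mean and SD of 3 libraries. SLC39A7, SLC39A14 and SLC30A5 were lower in each pBabe-GNA13 library than in any pBabe-vector library. SLC30A1 was highest in replicate 3 of both lines, and MT2A and MT1X changed direction between pairs.

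SLC39A14 encodes ZIP14, an importer of zinc, manganese and iron not bound to transferrin, and lies on chromosome 8 from 22367278 to 22434129 (GRCh38, Gencode 44). It was expressed at 132, 116 and 129 CPM in the pBabe-GNA13 libraries (std, 2 and 3) and at 162, 160 and 146 CPM in the pBabe-vector libraries (replicates 1, 2 and 3). The groups did not overlap, and the gene was lower in each pair. The log2 ratio was −0.31 (SE 0.10), or 0.807 times the pBabe-vector level, with an adjusted p by edgeR of 0.403 unblocked and 0.000164 blocked. It was also called as lower with the block when the std pair, the pair of replicate 2 or the pair of replicate 3 was left out (adjusted p by edgeR = 2.49e-05, 0.00269 and 2.57e-05). Under limma-trend with the block the adjusted p was 0.0899.

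SLC39A7 encodes ZIP7, which releases zinc from the endoplasmic reticulum into the cytosol, and lies on chromosome 6 from 33200305 to 33204439. Its levels were 200, 172 and 192 CPM in pBabe-GNA13 (std, 2 and 3) and 225, 237 and 222 CPM in pBabe-vector (1, 2 and 3). Again each pBabe-GNA13 library lay below each pBabe-vector library, with the widest gap in the pair of replicate 2. The log2 ratio was −0.28 (SE 0.10), or 0.824 times the pBabe-vector level, with an adjusted p by edgeR of 0.451 unblocked and 0.00054 blocked. Leaving out 1 pair at a time kept the blocked call (adjusted p by edgeR = 2.35e-06 without std, 0.0166 without replicate 2 and 0.000429 without replicate 3). Under limma-trend with the block the adjusted p was 0.12. RXRB overlaps SLC39A7 on the opposite strand, and whether strand was used in counting is not given in the sources used here. RXRB itself had a log2 ratio of 0.06 (adjusted p by edgeR = 0.988).

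SLC39A9 encodes ZIP9, a zinc transporter of the Golgi and cell surface, and lies on chromosome 14 from 69398015 to 69462390. It stood at 128, 118.5 and 112 CPM in pBabe-GNA13 and at 140, 138 and 128 CPM in pBabe-vector, in the same order of libraries. The groups touched, since the std library of pBabe-GNA13 and replicate 3 of pBabe-vector had nearly the same level, although the gene was lower in 3 of 3 pairs. The log2 ratio was −0.18 (SE 0.10), with an adjusted p by edgeR of 0.715 unblocked and 0.0128 blocked. It lost its blocked call once the replicate 2 pair was removed (adjusted p by edgeR = 0.0658), likewise for the replicate 3 pair (0.139), relative to the median of its chromosome (0.0758) and under limma-trend (0.0708). The blocked call of SLC39A9 stayed under DESeq2 (adjusted p = 0.0281) and in edgeR without the std pair (adjusted p = 0.013). ERH, which overlaps SLC39A9 on the opposite strand, had a log2 ratio of −0.08 (adjusted p by edgeR = 0.981).

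The other importers of the group were not called in either fit, and their groups overlapped. SLC39A1 (chromosome 1, 153959099 to 153968184), which encodes the cell-surface importer ZIP1, was expressed at 100.4, 94.6 and 104 CPM in pBabe-GNA13 and at 95.1, 99.2 and 104 CPM in pBabe-vector. Its log2 ratio was 0.0019 (SE 0.09, adjusted p by edgeR = 1 without and 0.999 with the block), and 98.9% of genes with a mean of at least 1 CPM had a larger absolute difference. A readthrough protein-coding gene, ENSG00000285779, overlaps SLC39A1 on the same strand, and CREB3L4 overlaps it on the opposite strand (log2 ratio 0.13, adjusted p by edgeR = 0.947). SLC39A6 (chromosome 18, 36108531 to 36129385) encodes ZIP6, an oestrogen-regulated importer first known as LIV-1. It stood at 349, 365 and 341 CPM in pBabe-GNA13 and at 322, 358 and 338 CPM in pBabe-vector, with overlapping groups and a log2 ratio of 0.05 (SE 0.09, adjusted p by edgeR = 0.981 unblocked and 0.529 blocked).

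None of the 3 exporters was called in either fit. SLC30A5 (chromosome 5, 69093991 to 69131069) encodes ZnT5, which loads zinc into the early secretory pathway as a partner of the SLC30A6 protein. Its levels lay close together, at 94.9, 96.1 and 98.6 CPM in pBabe-GNA13 and at 104, 100.2 and 102 CPM in pBabe-vector. The groups did not overlap (exact two-sided permutation test, p = 0.10, the smallest that 3 against 3 libraries allow), but the log2 ratio was only −0.08 (SE 0.08, adjusted p by edgeR = 0.911 unblocked and 0.32 blocked). Counted over the 10 genes, groups did not overlap for 3, all lower in pBabe-GNA13. Of all genes, 6.79% did so as lower and 7.3% as higher.

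SLC30A9 (chromosome 4, 41990502 to 42090461) encodes a zinc exporter of the mitochondria. It was expressed at 207, 207 and 191 CPM in pBabe-GNA13 and at 211, 208 and 182 CPM in pBabe-vector, so replicate 3 was the lowest library of both lines. The log2 ratio was 0.0067 (SE 0.10, adjusted p by edgeR = 1 unblocked and 0.947 blocked). SLC30A1 (chromosome 1, 211571568 to 211579161) encodes ZnT1, the exporter of the plasma membrane that MTF1 induces. It was expressed at 14.2, 11.8 and 22 CPM in pBabe-GNA13 and 14.2, 13.4 and 21.4 CPM in pBabe-vector. Its lines overlapped fully (log2 ratio −0.03, SE 0.27, adjusted p by edgeR = 1 unblocked and 0.78 blocked), while replicate 3 stood above the other libraries in both lines.

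**Figure D2:**
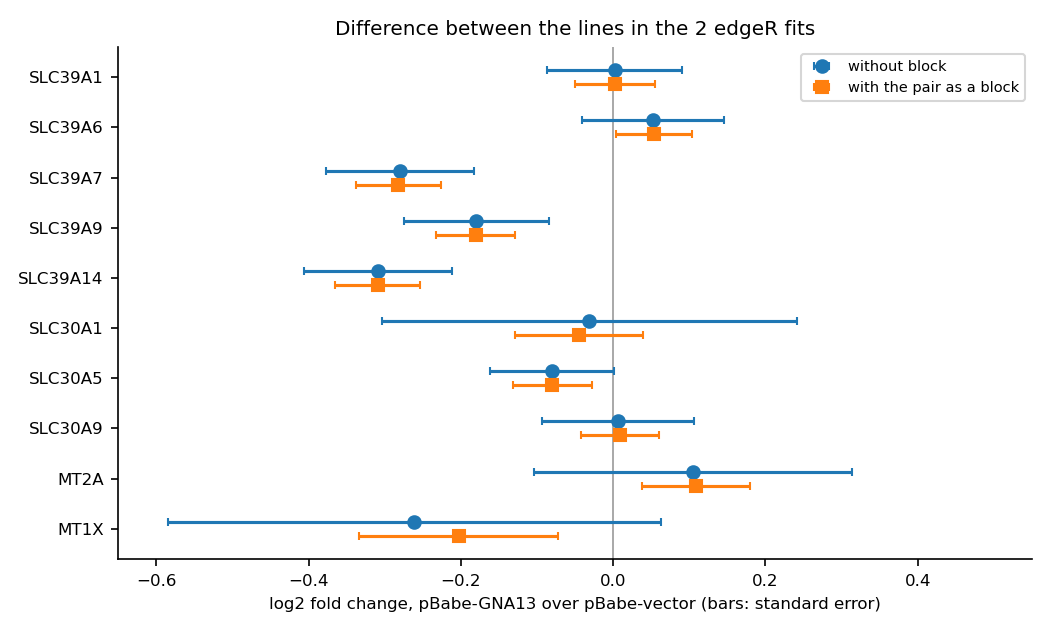
Log2 ratio of pBabe-GNA13 over pBabe-vector for the 10 genes in the edgeR fits without (blue circles) and with (orange squares) the pair of libraries as a block, with bars of 1 standard error. SLC39A7, SLC39A9 and SLC39A14 lie between −0.31 and −0.18 in both fits, and the block narrowed the standard error of SLC30A1 from 0.27 to 0.08.

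The metallothioneins MT2A (chromosome 16, 56608584 to 56609497) and MT1X (chromosome 16, 56682470 to 56684196) lie in the same gene cluster. MT2A was expressed at 82.8, 53.4 and 63.4 CPM in pBabe-GNA13 (std, 2 and 3) and at 64.3, 47 and 74.3 CPM in pBabe-vector (1, 2 and 3). It was higher in pBabe-GNA13 in the std pair and that of replicate 2, and lower in that of replicate 3. The log2 ratio was 0.10 (SE 0.21, adjusted p by edgeR = 0.986 unblocked and 0.327 blocked). MT1X stood at 9.37, 7.4 and 9.3 CPM in pBabe-GNA13 and at 14.5, 5.49 and 11.2 CPM in pBabe-vector. Its direction also turned between pairs, here higher only in that of replicate 2, and the log2 ratio was −0.26 (SE 0.32, adjusted p by edgeR = 0.946 unblocked and 0.316 blocked).

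Which pairs entered the fit decided the result for the metallothioneins. With the block and without the pair of replicate 3, MT2A was called as higher in pBabe-GNA13 (log2 ratio 0.29, adjusted p by edgeR = 0.00188), and without the std pair its value was −0.03 (0.858). MT1X was called as lower without the pair of replicate 2 (−0.46, adjusted p by edgeR = 0.0018), and its value was 0.05 without the std pair (0.867). These fits rest on 2 pairs. Metallothionein genes are closely similar copies of each other, and the counting may have split or dropped reads shared between them, so the values of single members are uncertain.

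Of the 11 metallothionein genes listed, 6 were in the table and 4 had a mean of at least 1 CPM. The other expressed members were MT1G, at 4.7 ± 0.751 CPM in pBabe-GNA13 and 5.46 ± 0.537 CPM in pBabe-vector, and MT1F, at 1.94 ± 0.343 and 1.88 ± 0.297 CPM (SD, n = 3 each). MT1E had 2, 0 and 7 reads in pBabe-GNA13 and 0, 0 and 1 in pBabe-vector, and MT1A had 0 reads in all 6 libraries. Together these genes summed to 66.8 to 100.1 CPM in pBabe-GNA13 libraries and to 59.3 to 92.8 CPM in pBabe-vector libraries. MT2A made up 74% to 82.7% of the sum. The ratio of MT2A to MT1X in CPM was lowest, 4.44, in replicate 1 of pBabe-vector and 6.61 to 8.84 in the other 5 libraries.

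Each pair of libraries holds 1 culture of either line. Between pairs, some of the 10 genes spanned far more on the log2 scale than their mean difference between the lines. That mean averages opposite signs for the metallothioneins. Within pairs, line differences ran from −0.23 to 0.37 for MT2A and from −0.62 to 0.43 for MT1X. A test of the pair terms in the blocked fit (edgeR, 2 degrees of freedom) called 4 of the 10 genes, which is no more than the 47.4% of all genes called. SLC30A1 spanned 0.78 on the log2 scale between the highest pair, replicate 3, and the lowest, replicate 2 (adjusted p by edgeR = 6.7e-07). MT1X spanned 0.86, from replicate 2 to std (adjusted p by edgeR = 0.000231), and MT2A spanned 0.54, also from replicate 2 to std (1.84e-05). For SLC30A9 the span was 0.17, with replicate 3 lowest (adjusted p by edgeR = 0.0476).

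The remaining transporters spanned less. SLC30A5 had a span of 0.03, and 99.2% of genes with a mean of at least 1 CPM had a larger one. For SLC39A7 the span was 0.07, for SLC39A1 0.10, for SLC39A14 0.11, for SLC39A6 0.11 and for SLC39A9 0.17. The median span was 0.14 for the 10 genes and 0.32 for the genes with a mean of at least 1 CPM. The 3 genes known as MTF1 targets, whose promoters are printed above, spanned more than this median of 0.32, and the other 7 spanned less, a pattern seen after the values were known and not tested. It did not extend to the wider lists. There SLC39A8 (1.58), TMEM163 (1.29), SLC30A3 (1.04), SLC39A10 (0.90), SLC39A13 (0.85), CBWD1 (0.67) and SLC30A4 (0.46) also spanned more than 0.32. Of the other expressed metallothioneins, MT1F spanned 0.40 (adjusted p by edgeR = 0.368), with std highest and replicate 2 lowest as for MT2A and MT1X. MT1G spanned 0.318 (adjusted p by edgeR = 0.152), just below the median of 0.324. In the mean of both lines, replicate 2 was lowest for MT2A, MT1X and SLC30A1. The highest pair was std for MT2A and MT1X and replicate 3 for SLC30A1. The lines differed in this for MT2A and MT1F, with std highest in pBabe-GNA13 and replicate 3 highest in pBabe-vector.

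**Figure D3:**
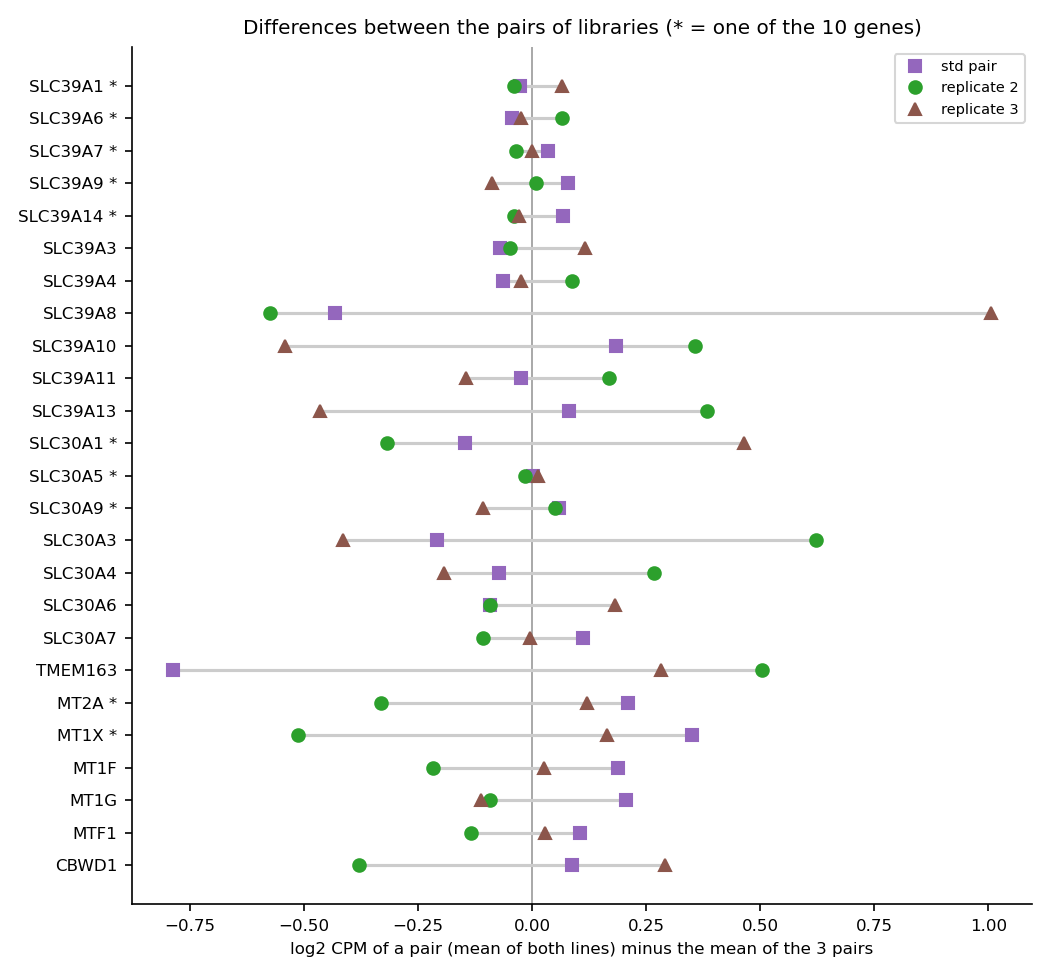
Log2 CPM of each pair of libraries (mean of both lines) minus the mean of the 3 pairs, for the zinc importers, exporters, metallothioneins, MTF1 and CBWD1 with a mean of at least 1 CPM. SLC39A8 spans 1.58, SLC30A1 0.78 and MT1X 0.86, while SLC30A5 spans 0.03.

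Profiles over the 6 libraries were compared with that of MT2A by the root mean square difference of log2 CPM centred on each gene's mean, among 9866 genes with a mean of at least 10 CPM. The 5 closest were LIN52 (0.10), PPM1D (0.11), C4orf46 (0.11), SEMA6A (0.11) and ELL2 (0.11), where the spread of MT2A itself was 0.27. By this measure a gene that does not move scores about the spread of MT2A itself, so it ranks amplitude together with shape. MT1X stood at 0.32 and SLC30A1 at 0.33.

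Levels can be set side by side only per length of transcript, here as CPM per kilobase of exon (union of the exons in Gencode 44). For MT2A (914 bases) and MT1X (1727 bases) this union covers the whole annotated span of the gene. Where the transcripts expressed are shorter than the union, the level per kilobase is understated. This limit holds for each gene compared, so the order below is uncertain for the transporters as well as for MT2A and MT1X. In pBabe-vector cells SLC39A6 was the highest of the 10 genes, at 92.1 ± 4.95 CPM per kilobase (SD, n = 3). MT2A followed with 67.7 ± 15.1 and SLC39A7 with 57 ± 1.96, and the libraries of these 2 genes overlapped. SLC39A1 (29.4 ± 1.35) and SLC30A9 (27.8 ± 2.26) came next and overlapped as well, followed by SLC39A14 (22.6 ± 1.27). SLC39A9 (18.9 ± 0.915) and SLC30A5 (18.8 ± 0.355) overlapped, and so did MT1X (6.03 ± 2.63) and SLC30A1 (2.77 ± 0.743). In pBabe-GNA13 the ranges of MT2A and SLC39A7 no longer overlapped, nor did those of MT1X and SLC30A1, whereas those of SLC39A14 and SLC39A9 did.

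**Figure D4:**
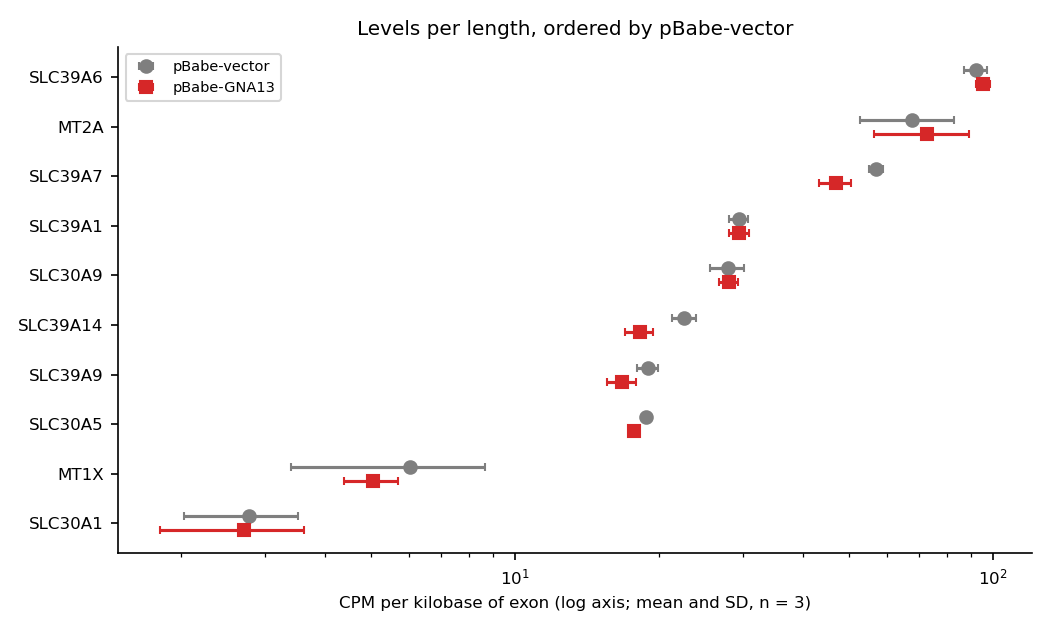
CPM per kilobase of exon on a log axis for the 10 genes in pBabe-vector (grey circles) and pBabe-GNA13 (red squares), mean and SD of 3 libraries, ordered by the level in pBabe-vector. SLC39A6 is highest at 92.1 and SLC30A1 lowest at 2.77 in pBabe-vector.

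The rest of the zinc genes were read from lists by role. Of 14 ZIP genes, 11 were in the table and all 11 had a mean of at least 1 CPM. None was called without the block (2 at an unadjusted p under 0.05), and with it 2 were higher and 3 lower, where 9.32% of all genes were higher and 10.4% lower. The higher ones were SLC39A8, whose product imports zinc and manganese, and SLC39A10, a partner of the SLC39A6 protein. SLC39A8 stood at 46.1, 38.2 and 126 CPM in pBabe-GNA13 and at 35.1, 34.8 and 94.9 CPM in pBabe-vector, so replicate 3 was far above the others in both lines. Its log2 ratio was 0.35 (adjusted p by edgeR = 0.969 unblocked and 0.000167 blocked, higher in 3 of 3 pairs), and limma-trend with the block did not call it (adjusted p = 0.102). SLC39A10 went the other way between pairs, at 178, 174 and 95.6 CPM in pBabe-GNA13 and 131, 170 and 89.1 CPM in pBabe-vector, with a log2 ratio of 0.20 (adjusted p by edgeR = 0.964 unblocked and 0.0238 blocked). That blocked call went once the std pair was removed (adjusted p by edgeR = 0.498), relative to the chromosome (0.188), and under DESeq2 (0.0807) and limma-trend (0.287).

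Of 11 zinc exporter genes, 9 were in the table and 8 had a mean of at least 1 CPM. One was called, with the block only: SLC30A4, which encodes a transporter that fills vesicles with zinc, was higher in pBabe-GNA13 by 0.22 on the log2 scale in both fits (adjusted p by edgeR = 0.858 unblocked and 0.00154 blocked). Limma-trend with the block gave an adjusted p of 0.0515. Its levels were 409, 518 and 376 CPM in pBabe-GNA13 and 350.3, 444 and 323 CPM in pBabe-vector, and the difference was 0.22 to 0.23 in each of the 3 pairs. At 46.4 ± 7.87 CPM per kilobase in pBabe-vector, SLC30A4 lay above each of the 3 exporters followed, within the limit given for levels per kilobase. SLC30A6, the partner of SLC30A5, had a log2 ratio of 0.03 (adjusted p by edgeR = 1 unblocked and 0.71 blocked). The other expressed exporter genes, SLC30A3, SLC30A7 and TMEM163, had values of 0.06, −0.03 and −0.51, and the other importers, SLC39A3, SLC39A4, SLC39A11 and SLC39A13, of −0.02, 0.09, −0.10 and −0.15, with no call in either fit. CBWD1, a zinc chaperone gene, was at 0.09 and spanned 0.67 between pairs, with replicate 2 lowest as for MT2A and MT1X. MTF1, the zinc-sensing factor itself, stood at 40, 33.1 and 36.1 CPM in pBabe-GNA13 and at 44.6, 38.7 and 44.3 CPM in pBabe-vector. Its log2 ratio was −0.22 (adjusted p by edgeR = 0.697 unblocked and 0.00722 blocked), a blocked call that went once the replicate 3 pair was removed (0.156) and under DESeq2 (0.0548) and limma-trend (0.0804).

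Genes of citrate metabolism, on which prostate zinc acts, and of other metals gave blocked calls in both directions, part of which followed their chromosomes. Among the citrate genes, CS was higher with the block, and ACLY and SLC25A1 were lower. CS (0.24 with the block) lies on chromosome 12, with a median of 0.30, and SLC25A1 (−0.22) on chromosome 22, with a median of −0.15, and neither was called relative to its chromosome (adjusted p by edgeR = 0.58 and 0.478). ACLY had an adjusted p by edgeR of 0.0492 with the block. Removing the replicate 2 pair ended the blocked calls of ACLY (0.324) and SLC25A1 (0.166) in edgeR, and removing the replicate 3 pair that of ACLY (0.17).

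Of 10 genes for iron, copper and manganese in the table, SLC11A2 was higher and ATP7A, FTL and ATOX1 were lower with the block. ATP7A, a copper exporter, was at 29.9, 31.9 and 33.4 CPM in pBabe-GNA13 and at 38.6, 40.5 and 44.1 CPM in pBabe-vector, without overlap (log2 ratio −0.37, adjusted p by edgeR = 0.338 unblocked and 4.55e-05 blocked). SLC11A2, an importer of iron, had a log2 ratio of 0.32 (adjusted p by edgeR = 0.515 unblocked and 4.1e-05 blocked) and shares chromosome 12 with CS. Set against the median there, it was at 0.03 (adjusted p by edgeR = 0.769 blocked). The annotated span of ATP7A also holds PGK1 on the same strand, and ATOX1 and SLC30A4 overlap genes on the opposite strand. FTL and ATOX1 had blocked log2 ratios of −0.16 and −0.18 (adjusted p by edgeR = 0.0279 and 0.0238). The call of FTL went without the replicate 3 pair (adjusted p by edgeR = 0.498), and that of ATOX1 without the replicate 2 pair (0.277) or the replicate 3 pair (0.134). Over all 45 genes of the lists in the table, 0 were called without the block, 4 had an unadjusted p under 0.05, and 15 were called with it, 5 higher and 10 lower. The shares over all genes were 8.46% at an unadjusted p under 0.05 and, with the block, 19.7% called, 9.32% higher and 10.4% lower. Under limma-trend with the block, SLC11A2 and ATP7A were called (adjusted p = 0.0491 and 0.0445), and relative to their chromosomes SLC39A7, SLC39A8, SLC39A14, SLC30A4, MTF1 and ATP7A were called in the blocked edgeR fit. DESeq2 with the block did not call FTL, ATOX1 or ACLY (adjusted p = 0.0584, 0.125 and 0.0735). The chromosomes of the 10 members had medians between −0.05 and 0.03, the lowest being that of SLC39A14, relative to which the gene was at −0.26 (adjusted p by edgeR = 0.0019 with the block).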

How the data were processed

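RNA-seq libraries of 6 LNCaP cultures were compared. Per the study's methods, paired-end reads of 150 nucleotides were checked with FastQC 0.11.7, mapped with STAR to Gencode 38 and aggregated with featureCounts of Rsubread 1.30.9. STAR's version, and how the 17297 genes were selected, are not given in the sources used here. The authors deposited raw counts, whole numbers for each gene symbol, although the study's text speaks of log2 CPM. All 6 columns were used.

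Counts were scaled by TMM and tested over all genes with edgeR 4.0.16 (glmQLFit and glmQLFTest, abundance trend, R 4.3.3) and Benjamini-Hochberg adjustment. The standard error is the absolute log2 fold change divided by the root of the test's F. Log2 CPM used a prior count of 2. Permutation tests used SciPy 1.17.1 and figures matplotlib 3.10.9. The fits were also run on simulated counts. The changes simulated were larger than any difference between the lines among the genes followed, so calls at such small differences were not checked. Symbols were matched to Gencode 44, directly or through RefSeq synonyms (14397 of 17297).

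The pairs follow the numbers and the tag in the column headings. Deviations from the group means (12778 genes) correlated at 0.659 (std), 0.807 (replicate 2) and 0.888 (replicate 3) within pairs and at −0.736 to 0.125 across them, so the block is given where it changes a call.

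The 10 members and the gene lists were chosen with earlier results of these data known. Named genes are the members, GNA13, genes of the zinc lists with a mean of at least 1 CPM, called genes of the metal and citrate lists, and the 5 profiles nearest to MT2A. RXRB, ERH and CREB3L4 were added for their overlap, and MT1A, MT1E and GPR39 after their values were seen. The test of the pair terms was also added then. Some genes that the rule names are not reported here.

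Alternatives were DESeq2 1.42.0, limma-trend (limma 3.58.1), RLE and upper-quartile factors, a filter at a mean of 1 CPM, no abundance trend, the block, each library or pair left out, and centring by chromosome. DESeq2 and limma-trend with the block and a term for the std libraries were chosen after seeing the data.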

Additional observations from a re-analysis of the deposited data

How the results depend on the processing

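Without the block, 0 of the 10 genes and 0 of the 45 genes of the wider lists were called under edgeR, DESeq2, limma-trend, RLE or upper-quartile factors, the filter at 1 CPM, no abundance trend, the std term, chromosome centring, or with any library left out. With the replicate block (the pairs of libraries) the counts were 3 and 15, with DESeq2 and the block 3 and 10, with chromosome centring and the block 2 and 6, and with limma-trend and the block 0 and 2. With the block and the std, replicate 2 or replicate 3 pair left out, 3 of the 10 genes were called each time, and 16, 12 and 10 of the wider lists, where 3266, 2550 and 2250 of all genes were called. SLC39A7 and SLC39A14 were called in all 3 of these fits, and the other gene was SLC39A9, then MT1X (lower), then MT2A (higher). Over all genes, the fit without the block called 24, DESeq2 271 and limma-trend 5, and the blocked fits called 3407 (edgeR), 2000 (DESeq2) and 433 (limma-trend). The block changed no other call among the 10 genes than those of SLC39A7, SLC39A9 and SLC39A14. Of 210 log2 ratios of the 10 genes under other settings, 174 kept their direction and side of the threshold, 17 gained a call and 19 changed sign. SLC39A1 was at −0.024 relative to its chromosome and at −0.023 with the block as well. With 1 library left out, log2 ratios ranged from −0.030 to 0.038 (SLC39A1), −0.059 to 0.051 (SLC30A9), −0.33 to 0.21 (SLC30A1), −0.076 to 0.26 (MT2A) and −0.57 to 0.055 (MT1X). With the block and 1 pair left out they ranged from −0.032 to 0.033, −0.011 to 0.033, −0.085 to 0.014, −0.026 to 0.29 and −0.46 to 0.050 in the same order. No sign changed for the other 5 genes. The blocked fits leave 2 residual degrees of freedom per gene before moderation, and 1 when a pair is left out. Depth was not limiting for the 8 transporters followed, which had at least 401 reads in each library, but MT1A, MT1E and GPR39 were at or near the floor.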
